A study of Mus musculus with 22 samples.

Results

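The RUNX family and its partner CBFB were followed here through 5 genes, Runx1, Runx2, Runx3, Runx1t1 and Cbfb, chosen by name as the 3 RUNX genes, the RUNX1 fusion partner and corepressor gene and the gene of the shared beta subunit. They are 5 of the 24454 gene symbols in the count table. Of the 5, 4 passed the filter on low counts that 12949 genes passed, and Runx2 did not. All 22 libraries came from the aorta-gonad-mesonephros (AGM) region of C57BL/6 mouse embryos, and each was made from 25 cells sorted as VE-Cadherin positive and then split by the surface proteins CD44 and Kit. There were 10 CD44Neg libraries (4 from E9.5, 3 from E10 and 3 from E11), 6 CD44LowKitNeg libraries (1, 2 and 3), 3 CD44LowKitPos libraries (1 at E9.5 and 2 at E10) and 3 CD44High libraries, all at E11. None of the cells was cultured or treated. The labels do not say how many embryos or litters stand behind a library, so the p-values below measure the spread between these libraries, which may be technical. The dates in the labels coincide with the stages, so stage and date cannot be told apart.

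RUNX proteins are transcription factors that bind DNA through the Runt domain, and CBFB is the subunit without DNA contact of its own that strengthens this binding. RUNX1 is required for endothelial cells of the embryonic aorta to become blood cells, RUNX2 drives bone formation, and RUNX3 is best known in T cells and sensory neurons. RUNX1T1, also called ETO, is a corepressor known from its fusion with RUNX1 in leukaemia.

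The 3 RUNX genes carry 1 stretch of sequence in common at their upstream promoters, shown because it holds the motif that RUNX proteins themselves bind. RefSeq lists promoter windows of 300 bases (250 before and 50 after a transcript's start, GRCm38.p6) for 4 of the 5 genes. Across the upstream windows of Runx1, Runx2 and Runx3 the longest run found in all 3 was 18 bases, printed in capitals within 30 bases of each window, 5′ to 3′ on the gene's strand. The run was looked for after the sequences had been seen.
Runx1: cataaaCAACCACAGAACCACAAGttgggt
Runx2: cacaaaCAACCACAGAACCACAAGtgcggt
Runx3: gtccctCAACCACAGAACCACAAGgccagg
These stretches lie at chr16:92826025-92826054 on the minus strand, chr17:44814583-44814612 on the minus strand and chr4:135120503-135120532 on the plus strand. In Runx1 the run covers bases 27 to 44 after the listed start and in Runx2 bases 22 to 39, within the transcribed 5′ leader, whereas in Runx3 it ends 119 bases before the start. The run holds the RUNX motif TGTGGT 2 times, both on the opposite strand. Among 27025 genes with a window, 4 hold the whole run, and the fourth, Gm16225, starts on the other strand of the Runx3 promoter, so that its window covers the same bases.

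The hexamers TGTGGT and TGCGGT were also counted on both strands in all 32851 windows, and 2.86% of windows held 2 or more copies, against 22.4% with at least 1. The upstream windows of Runx1 and Runx3 held 2 copies each and that of Runx2 held 4. The 2 copies of Runx1 and Runx3 are those of the shared run, so their number is no separate observation. Of 11 blood genes linked to RUNX1 with a window, 1 held the motif, against 25% of all genes. The downstream windows of Runx1 and Runx3 and the Cbfb window held 0. The count table has 1 row per gene and does not separate transcripts from these promoters.

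Runx1 (chr16:92601466-92826149, minus strand, GENCODE vM21 on GRCm38) was high in some groups of libraries and without a count in others. Levels below are normalised CPM, counts divided by library size after TMM, a normalisation for library composition. In CD44Neg at E9.5 the 4 libraries had 21.4, 2.39, 11.5 and 16.2 normalised CPM, at E10 the 3 had 5.23, 0.224 and 0, and at E11 all 3 had 0. In CD44LowKitNeg the E9.5 library had 54.7, the 2 E10 libraries had 129 and 44.8, and the 3 E11 libraries had 0. The 3 CD44LowKitPos libraries had 117 and 165 at E10 and 110 at E9.5, and the 3 CD44High libraries had 54.6, 132 and 82.2. Runx1 was thus high in all CD44LowKitPos, CD44High and earlier CD44LowKitNeg libraries, lower in every earlier CD44Neg library, and without a single count in the 6 E11 libraries of the CD44Neg and CD44LowKitNeg populations. In bulk samples such as these, fewer cells with a transcript and less of it per cell cannot be told apart.

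**Figure D1:**
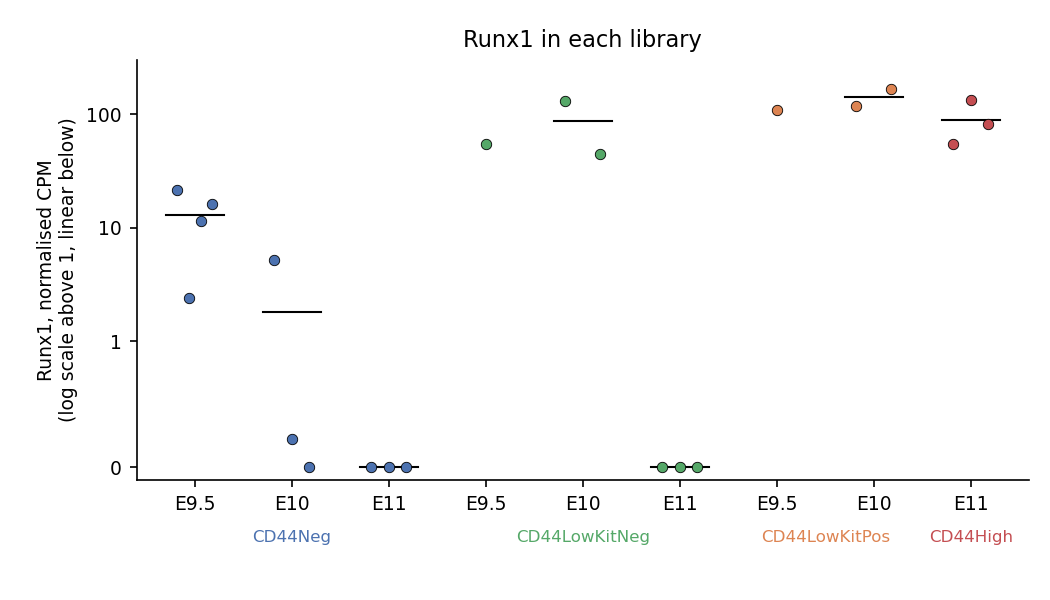
Normalised CPM of Runx1 in each library (points), by stage and population, on an axis that is logarithmic above 1 and linear below it; black lines are means where a group has 2 or more libraries. The 3 earlier CD44LowKitNeg libraries sit between 44.8 and 129, the 7 CD44Neg libraries of the same stages between 0 and 21.4, and all 6 CD44Neg and CD44LowKitNeg libraries at E11 at 0.

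At E9.5 and E10, Runx1 was higher in CD44LowKitNeg than in CD44Neg by 3.80 ± 0.72 (log2 fold change ± SE) or 14.0-fold, and the 3 libraries did not overlap the 7. This value averages 2 unlike stage differences. Levels were 54.7 normalised CPM (1 library) against a mean of 12.9 at E9.5, and means of 87.1 against 1.82 at E10. The adjusted p was 0.00831 by edgeR's quasi-likelihood test, with genes called at an adjusted p under 0.01, and 1.41% of all genes tested were called in this comparison. Neural marker sums were 112 to 245 in the 3 libraries and 20.7 to 52.3 in the 7, and blood marker sums 48.9 to 146 and 15.2 to 44.4, without overlap in either. The neural sums rested on few genes, with 1 to 3 of the 6 markers detected in each of the 3 libraries and 1 or 2 in each of the 7. No marker of the 6 lists was called by edgeR, with 4 of the 6 endothelial, 2 of the 8 macrophage, 1 of the 2 tested neural and 3 of the 6 blood markers at an unadjusted p under 0.05. DESeq2 and limma voom each called 1 blood marker and 0 neural markers. Of the endothelial markers DESeq2 called 2 higher and limma voom 2 higher and 2 lower, and DESeq2 called 1 macrophage marker. Of all 12949 genes, edgeR had 2909 at an unadjusted p under 0.05, DESeq2 called 833 and limma voom called 822. Their part in the Runx1 difference was not tested. The call rested close to the threshold. It was lost on leaving out any 1 of 12 libraries (CD44Neg replicates 4, 5, 6, 7, 9 and 10, CD44LowKitNeg replicates 14, 15 and 16, CD44LowKitPos replicates 17 and 18, and CD44High replicate 21), with an adjusted p of up to 0.0305 and a log2 fold change between 3.38 and 5.53. Without CD44Neg replicate 8 it was called at 5.76. With only these 2 populations in the fit the difference was 3.81 with an adjusted p of 0.0182.

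Between E9.5 or E10 and E11, Runx1 was lost from the CD44LowKitNeg counts. The mean of the 3 earlier libraries was 76.3 ± 46.3 normalised CPM (SD), at least 182-fold above the floor of 3 counts per library at E11, and the adjusted p of the fall was 0.00107 where 1.57% of genes were called. It was called in all 22 fits that left out 1 library. Of 5943 genes with at least 100 counts in each of the 3 earlier CD44LowKitNeg libraries, 3 had no count in any E11 CD44LowKitNeg library, and these were Runx1, Rps6ka6 and Lyz2. The reverse pattern was as frequent, with 3 genes. The pattern and the limit of 100 were set on the values of Runx1 after they were seen. Lyz2, the lysozyme of macrophages and granulocytes, had 133 to 210 counts in the earlier CD44LowKitNeg libraries, 964 to 1431 in CD44LowKitPos and 2444 to 9920 in CD44High.

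No marker of the 6 lists of cell types examined was called in this comparison by edgeR, though sums differed. The 6 endothelial markers summed to 2803 to 3806 normalised CPM in the 3 earlier CD44LowKitNeg libraries and 5445 to 5982 in the 3 at E11, with all 6 detected in each. The 9 mesenchyme markers summed to 4.19 to 20.3 and 29.2 to 99.1, the 8 erythroid markers to 13.8 to 31.9 and 32.2 to 61.3, and these 3 lists did not overlap. Sums that overlapped were 112 to 245 and 242 to 689 for the 6 neural markers and 0.541 to 53.9 and 0 to 9.95 for the 8 macrophage markers, of which at most 3 were detected in a library. Of the neural markers 1 to 3 were detected in each of these libraries. The 6 blood markers also overlapped, at 48.9 to 146 and 99.8 to 156, with 5 detected in each earlier library and 2 to 4 at E11, and Ptprc, the pan-leukocyte CD45 gene, had 0 counts in the earlier libraries and at most 1 at E11. At an unadjusted p under 0.05 edgeR had 4 of the 6 endothelial markers, 3 of the 6 blood markers, 1 tested marker each of the erythroid, mesenchyme and neural lists and 0 macrophage markers, where 2420 of all 12949 genes had such a p. DESeq2 called 3 endothelial markers and 1 blood marker, all higher at E11. Limma voom called 4 endothelial markers and 1 each of the erythroid, mesenchyme and neural lists higher, and 1 blood marker lower. Rn45s, a ribosomal RNA gene, took 7.29%, 9.71% and 11.1% of counts in the earlier libraries and 17.4%, 18.6% and 19.2% at E11, again without overlap. With Rn45s left out before scaling, the fall of Runx1 was still called. The part of the marker differences in the Runx1 result was not tested.

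At E11 CD44LowKitNeg and CD44Neg could not be compared for Runx1, since all 6 libraries were at 0. At these depths a count of 0 allows up to 0.388 to 0.795 normalised CPM in a library. For the same reason a change of the population difference with stage could not be estimated for Runx1. That test called 0.116% of genes, and the E11 comparison called 3.64%. Runx3 was at 0 in every library of these populations, so it could not be compared either. Runx1t1 and Cbfb were called in neither by edgeR, DESeq2 or limma voom. In the E11 comparison neither of these 2 genes had an unadjusted p under 0.05 with any of the 3 tools. In the test of stage dependence 0 members had such a p with edgeR, 1 with DESeq2 and 1 with limma voom.

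In CD44Neg alone the mean level of Runx1 was 12.9 ± 8.08 (SD, n = 4) at E9.5, 1.82 ± 2.96 (n = 3) at E10 and 0 (n = 3) at E11. All 4 E9.5 libraries were above the 3 at E11, at least 20.99-fold on the mean over the floor. The adjusted p of the difference between E9.5 and E11 was 0.0327 and missed the threshold, in a comparison that called 0.0463% of genes. Without the filter on low counts it was 1.86e-07, and with DESeq2's Wald test 1.14e-05. Endothelial marker sums were 2200 to 2768 at E9.5 and 3759 to 4179 at E11, neural marker sums 20.7 to 52.3 and 81.6 to 109, and the Rn45s share 1.92% to 13.8% and 15.2% to 17.9%, none of them overlapping. By edgeR 0 markers of these 2 lists were called, with 2 of the 6 endothelial and 1 of the 2 tested neural markers at an unadjusted p under 0.05. Of the neural list 1 or 2 markers were detected in each E9.5 library and 2 or 3 in each at E11. DESeq2 and limma voom each called 1 endothelial marker and 0 neural markers. Their part in the Runx1 values was not tested.

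CD44LowKitPos held Runx1 at 131 ± 30.1 normalised CPM (SD, n = 3), in the order of means the highest group, followed by CD44High at 89.7 ± 39.4 (n = 3) and the earlier CD44LowKitNeg libraries. The last pair overlapped, at 54.6 to 132 and 44.8 to 129, and was not tested. CD44LowKitPos was above stage-matched CD44LowKitNeg by 0.85 ± 0.90 (log2 ± SE, adjusted p of 0.711 by edgeR, 0.934% of genes called), and CD44High differed from CD44LowKitPos by -0.47 ± 0.86 (adjusted p of 0.874, 3.6% called), neither beyond the spread between libraries. CD44High and CD44LowKitPos share no stage. A fit with population and stage as separate terms took the E11 shift from the other populations and gave 10.5 ± 1.93 (adjusted p of 0.00262) for CD44High over CD44LowKitPos, the opposite direction.

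Against CD44Neg the same 2 groups were far higher. CD44LowKitPos exceeded stage-matched CD44Neg by 4.65 ± 0.73 (log2 ± SE) or 25.2-fold, with an adjusted p of 0.0011 by edgeR where 3.17% of genes were called. CD44High exceeded E11 CD44Neg at least 146-fold (adjusted p of 1.20e-04, 10.8% of genes called) and E11 CD44LowKitNeg at least 214-fold (adjusted p of 5.12e-05, 19.5% called). Each was called in all 22 fits that left out 1 library. The size of the first depended on single libraries, at 6.55 without CD44Neg replicate 8 and 6.23 without CD44LowKitPos replicate 19, and lay between 4.37 and 6.55 over the 22 fits.

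Marker lists separated CD44LowKitPos from the 7 CD44Neg libraries of E9.5 and E10 as well. Endothelial marker sums were 488 to 1215 against 2200 to 3547, and blood marker sums 273 to 997 against 15.2 to 44.4, without overlap in either. By edgeR 2 of the 6 endothelial markers fell, and 4 of the 6 blood markers and 1 of the 8 macrophage markers rose. Their part in the Runx1 difference was not tested.

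CD44High carried other differences beside Runx1. The libraries are labelled VE-Cadherin positive, yet Cdh5, the gene of VE-Cadherin, had 0 counts in all 3, and the 6 endothelial markers summed to 14.3 to 65.0 normalised CPM with 3 to 5 detected. All 8 macrophage markers were detected in each of the 3, with a sum of 1683 to 4525, against a highest sum of 53.9 in the other 19 libraries. The 9 mesenchyme markers summed to 236 and 139 in CD44High replicates 20 and 21, against 0.272 in replicate 22 and at most 99.1 in any other library. The 6 neural markers summed to 0.544 to 12.3 in CD44High and 81.6 to 689 in the other 6 libraries at E11, without overlap, and edgeR called 1 of the 2 tested lower against both E11 populations. Of these markers 1 or 2 were detected in each CD44High library and 1 to 3 in each of the other 6. Blood marker sums were 1129 to 1955 in CD44High, above the 19.6 to 156 of those 6 libraries. Col1a1, a collagen gene named after its values were seen, had 306, 246 and 1 counts in the 3 libraries and 0 in the other 19. Without replicates 20 and 21, an alternative chosen after seeing the data, Runx1 in CD44High was still called over E11 CD44LowKitNeg (edgeR adjusted p of 1.27e-04) and E11 CD44Neg (2.80e-04), with the lone library assumed to vary like the others. The part of these marker differences in the CD44High values was not tested.

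**Figure D2:**
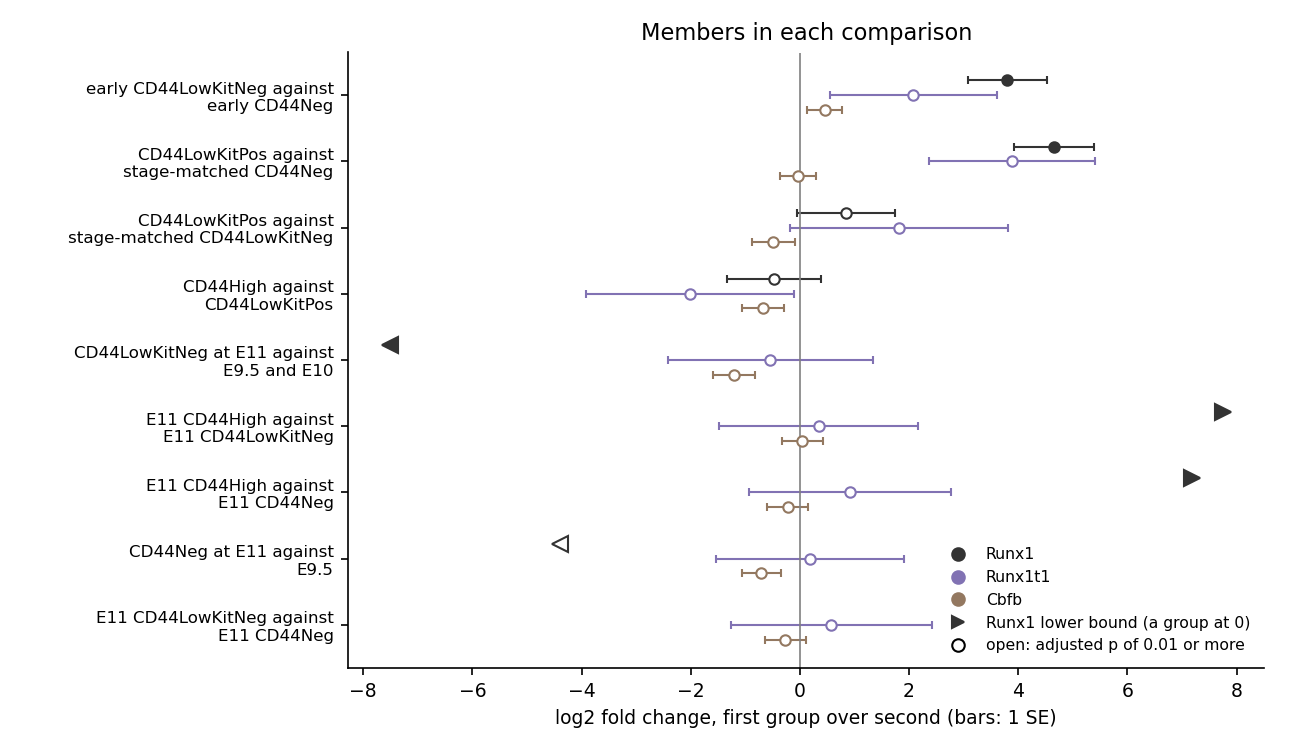
Log2 fold changes (points, with bars of 1 SE) of Runx1, Runx1t1 and Cbfb in 9 comparisons, first group over second; triangles are lower bounds for Runx1 where 1 group had no counts, and filled symbols are called at an adjusted p under 0.01. The filled symbols are all Runx1, and no Runx1 symbol is drawn for the E11 comparison of CD44LowKitNeg and CD44Neg, where both groups were at 0.

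Cbfb (chr8:105170674-105217989, plus strand) was measured in every library, between 31.7 and 193 normalised CPM. The CD44Neg range was 97.8 to 143 at E9.5, 56.6 to 105 at E10 and 56.2 to 93.5 at E11. CD44LowKitNeg had 131 at E9.5, 192.8 and 95.2 at E10, and 63.7, 31.7 and 84.1 at E11. The 2 CD44LowKitPos libraries at E10 had 71.3 and 70.3 and the one at E9.5 had 136, and CD44High had 53.4, 91.6 and 40.5. At E9.5 and at E11 the populations overlapped, while at E10 the 2 CD44LowKitPos libraries lay below the 2 CD44LowKitNeg libraries and within the range of CD44Neg.

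Cbfb was called in none of the 10 comparisons by edgeR. The difference with the smallest p was that within CD44LowKitNeg, where the 3 E11 libraries lay below the 3 earlier ones without overlap, at a log2 fold change of -1.20 ± 0.39, with an unadjusted p of 0.00575 and an adjusted p of 0.0869. Over 9 alternative analyses that adjusted p ranged from 0.0192 to 0.129. Within CD44Neg the E11 libraries differed from the E9.5 libraries by -0.71 ± 0.36 on the log2 scale (adjusted p of 0.402), also without overlap.

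**Figure D3:**
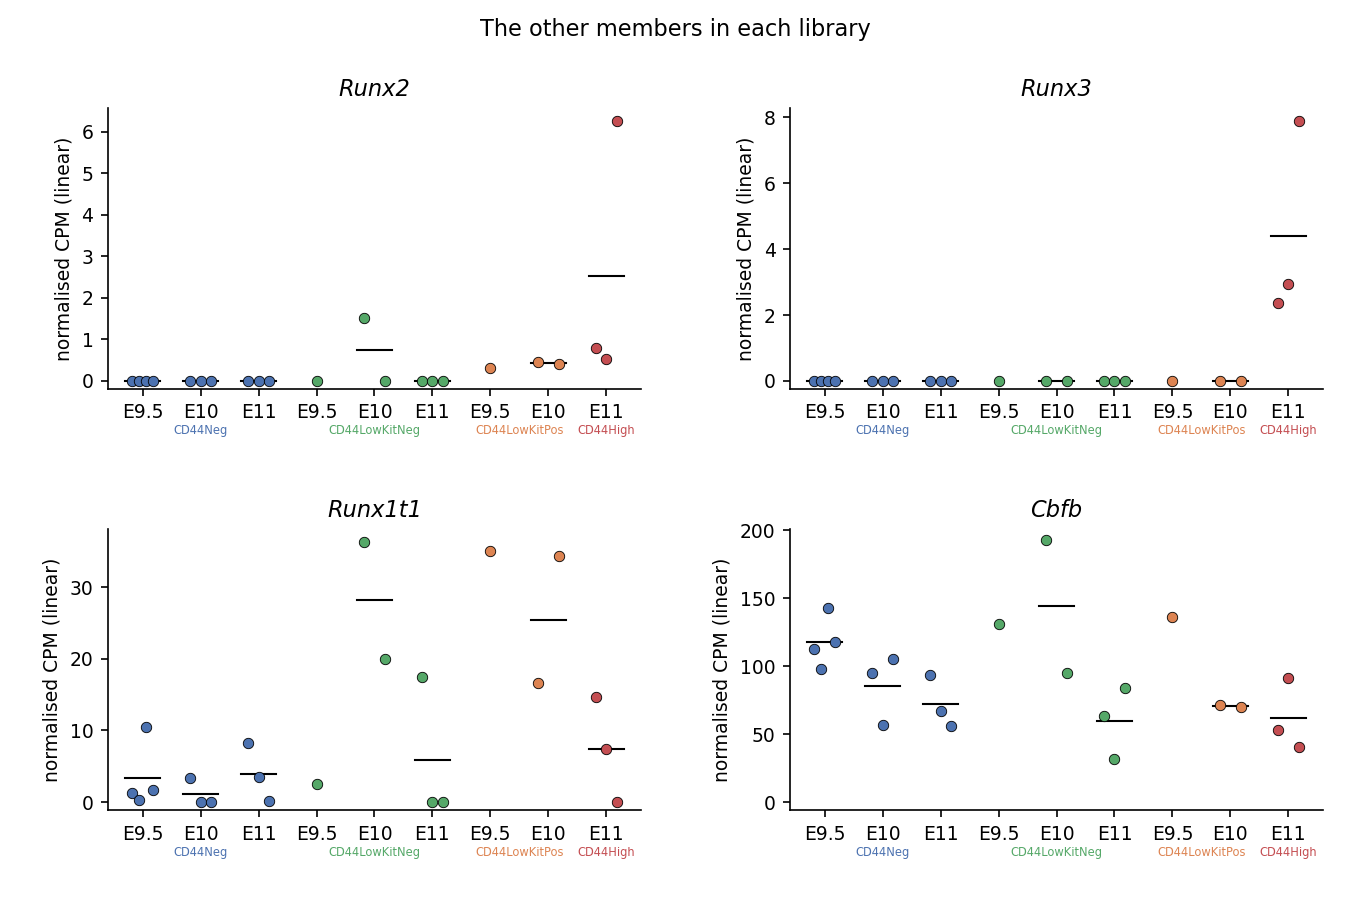
Normalised CPM of Runx2, Runx3, Runx1t1 and Cbfb in each library (points) by stage and population, with means as black lines and a linear axis of its own for each gene. Cbfb is above 0 in all 22 libraries, Runx3 is above 0 in the 3 CD44High libraries alone, and Runx1t1 scatters between 0 and 36.2 within populations.

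Per length, Runx1 was closest to the level of its partner in CD44LowKitPos and CD44High, though below it in most of these libraries. Within each library the ratio of Runx1 to Cbfb counts per kb of longest annotated transcript (5861 and 2891 bases) does not depend on scaling between libraries. The ratio was 0.012 to 0.094 in CD44Neg at E9.5, 0.205 to 0.331 in the 3 earlier CD44LowKitNeg libraries, 0.397 to 1.16 in CD44LowKitPos and 0.504 to 0.9998 in CD44High. It was 0.788 ± 0.381 in CD44LowKitPos and 0.256 ± 0.0662 in the earlier CD44LowKitNeg libraries (SD, n = 3 each), without overlap. An exact two-sided permutation test gave p of 0.1, the smallest that 3 against 3 libraries allow. With coding length in place of transcript length the ranges were 0.323 to 0.945 and 0.167 to 0.270.

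**Figure D4:**
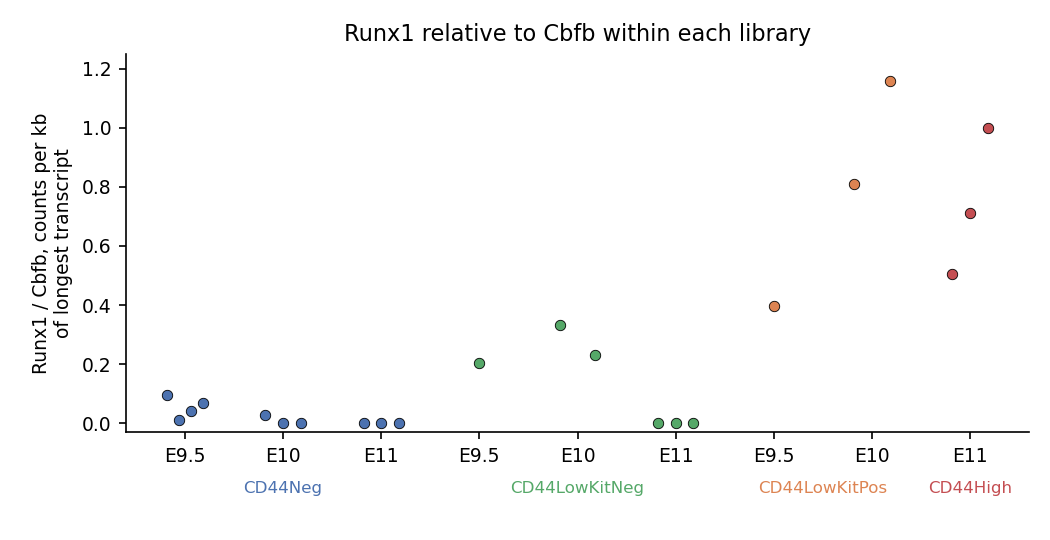
Ratio of Runx1 to Cbfb counts per kb of longest transcript in each library (points), by stage and population, on a linear axis. The 3 CD44LowKitPos libraries lie between 0.397 and 1.16 and the 3 earlier CD44LowKitNeg libraries between 0.205 and 0.331.

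Runx1t1 (chr4:13743436-13893649, plus strand) was present in some libraries of each population. CD44LowKitPos had 16.6 and 34.3 normalised CPM at E10 and 35.0 at E9.5. CD44LowKitNeg had 2.55 at E9.5, 36.2 and 20.02 at E10, and 17.5, 0 and 0 at E11. CD44High had 14.6, 7.46 and 0, and the 10 CD44Neg libraries ranged from 0 to 10.4 with a median of 1.52. The 3 CD44LowKitPos libraries were above all 7 CD44Neg libraries of E9.5 and E10.

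That difference was 3.89 ± 1.52 (log2 ± SE) with an unadjusted p of 0.0192 and an adjusted p of 0.155 by edgeR, and it was not called. Leaving out 1 library moved it between 3.58 and 6.76, the latter without CD44Neg replicate 8, and it was called in none of these fits. With limma voom it was 5.21 with an adjusted p of 0.00379. No other comparison called Runx1t1 by edgeR, DESeq2 or limma voom. Its direction in CD44LowKitPos against CD44LowKitNeg turned on leaving out either single E9.5 library. Without CD44LowKitNeg replicate 14 the log2 difference was -0.15 in place of 1.81, and without CD44LowKitPos replicate 19 it was -0.18.

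Runx3 (chr4:135120652-135177990, plus strand) had counts in CD44High alone, with 12, 11 and 29 in the 3 libraries, or 2.38, 2.93 and 7.89 normalised CPM. The other 19 libraries had 0. On the mean, 4.40 ± 3.04 (SD, n = 3), CD44High was at least 10.5-fold above E11 CD44LowKitNeg, at least 7.16-fold above E11 CD44Neg and at least 10.0-fold above CD44LowKitPos. Since Runx3 passed the filter on low counts through CD44High alone, a test against the other groups has its direction fixed beforehand, and none is given. These counts stand in the libraries with the macrophage markers above.

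Runx2 (chr17:44495987-44814797, minus strand) was the only member that failed the filter on low counts and was not tested. All 10 CD44Neg libraries had 0 counts. CD44LowKitNeg had 9 counts in replicate 15 at E10 and 0 in the other 5 libraries, CD44LowKitPos had 3, 3 and 2, and CD44High had 4, 2 and 23. Apart from that of 23 and that of 9, every value was within 1 count of the floor of 3 or below it. Supt3 overlaps Runx2 on the opposite strand with 16 to 214 counts per library, and antisense genes overlap Runx1 (Gm26626), Runx2 and Runx3 (Gm16224). Whether the counting used strand is not given in the sources used here, so reads of such partners cannot be told apart from those of the 3 RUNX genes. Of 9 genes linked to RUNX2 in bone, 3 passed the filter, and none was called by edgeR in any of the 10 comparisons. Of these 3 genes, 3 had an unadjusted p under 0.05 in CD44High against E11 CD44LowKitNeg and 2 in E11 CD44LowKitNeg against CD44Neg, where 5265 and 3037 of all 12949 genes did. DESeq2 called 1 gene in the first of these. Limma voom called 2 in the first, 1 in the second and 1 in E11 against earlier CD44LowKitNeg. Of all 12949 genes DESeq2 called 3170 in the first, and limma voom called 3231, 836 and 597 in the 3 comparisons.

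The genes around RUNX1 were read from lists named for their known links. The list of blood genes shares members with the marker lists, among them Ptprc with the blood markers and Csf1r with the macrophage markers. Results of these lists are therefore not separate observations. Of 15 blood genes linked to RUNX1, 14 were tested. In CD44LowKitPos against stage-matched CD44Neg 10 of the 14 rose and 0 fell, beside 192 higher and 218 lower of all 12949 genes. The median difference of the list was 6.44 on the log2 scale, with genes absent from 1 group at their bound (7.32 as fitted), against -0.01 over all genes. Ptprc rose at least 130-fold, Spi1, the gene of the myeloid factor PU.1, by 7.21 ± 0.73, Nfe2, a megakaryocyte and erythroid factor, by 7.07 ± 0.92 and Gfi1b, a repressor of the endothelial programme, at least 73.4-fold. The edgeR adjusted p-values of these 4 were 1.24e-06, 1.89e-05, 8.26e-05 and 2.48e-04.

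**Figure D5:**
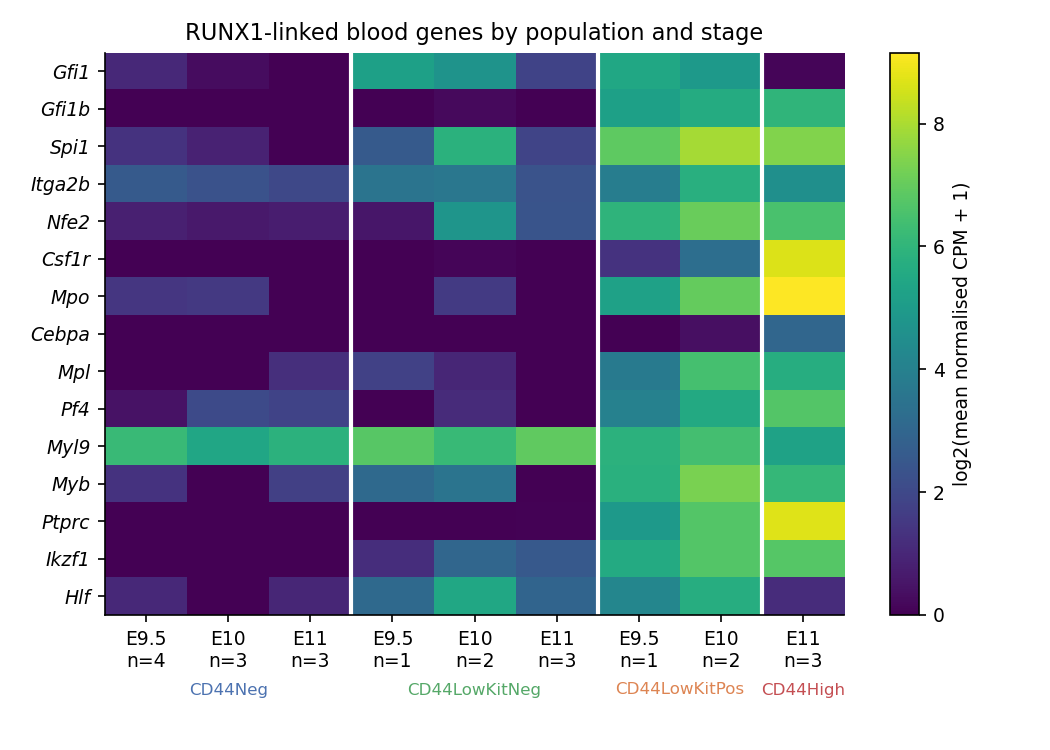
Mean normalised CPM of the 15 blood genes linked to RUNX1 (rows) in each population and stage (columns, with the number of libraries), as the log2 of the mean plus 1. Gfi1b and Ptprc are at or near 0 in every CD44Neg and CD44LowKitNeg column, and Gfi1 is high in the earlier CD44LowKitNeg and the CD44LowKitPos columns and near 0 in CD44High.

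In the earlier CD44LowKitNeg libraries, where Runx1 was already 14.0-fold above CD44Neg, 1 of the 14 genes was called. Spi1 was higher by 3.88 ± 0.72 (edgeR adjusted p of 0.006), at 43, 448 and 283 counts. DESeq2 called 3 of the list and limma voom 4. Of all 12949 genes, edgeR called 1.41%, DESeq2 833 genes and limma voom 822. The median of the 11 genes with a value was 2.42, against -0.10 over all genes. Gfi1, the paralogue of Gfi1b with a related role, was named after its values were seen. It had 308, 232 and 83 counts in the 3 earlier CD44LowKitNeg libraries, 0 to 23 in CD44Neg of those stages, 182 to 282 in CD44LowKitPos, 0, 30 and 25 in CD44LowKitNeg at E11 and 0, 1 and 0 in CD44High. Its difference between earlier CD44LowKitNeg and CD44Neg, 5.87 ± 1.42, had an adjusted p of 0.0215 and was not called. Gfi1b in the same CD44LowKitNeg libraries had 0, 2 and 0 counts, against 474, 177 and 236 in CD44LowKitPos.

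In CD44LowKitPos against CD44LowKitNeg, Ptprc alone of the 14 was called, at least 188-fold higher (edgeR adjusted p of 5.00e-05). DESeq2 and limma voom each called 5. Of all 12949 genes, edgeR called 0.934% here, DESeq2 620 genes and limma voom 521. Endothelial marker sums were 488 to 1215 in CD44LowKitPos and 2803 to 3806 in these CD44LowKitNeg libraries, and blood marker sums 273 to 997 and 48.9 to 146, without overlap in either. Of the 6 endothelial markers edgeR called 3 lower and DESeq2 and limma voom 5 each, and edgeR called 1 blood marker higher, which was Ptprc itself. The part of the endothelial and the other blood markers in the Ptprc difference was not tested. Between E11 and earlier CD44LowKitNeg libraries, where Runx1 fell, 0 of the 14 were called by edgeR. At an unadjusted p under 0.05 there were 3 of the 14, beside 2420 of all 12949 genes, and DESeq2 called 0 and limma voom 1 (611 and 597 of all genes). In E11 CD44LowKitNeg against CD44Neg edgeR called 0, with 7 at an unadjusted p under 0.05 beside 3037 of all genes, DESeq2 called 2 and limma voom 0 (990 and 836 of all genes). Myb, a factor of definitive blood progenitors that was named after its values were seen, had 67, 76 and 62 counts in the earlier CD44LowKitNeg libraries and 0 in all 3 at E11, with an edgeR adjusted p of 0.0358.

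In CD44High 9 of the 14 rose over E11 CD44LowKitNeg and 8 over E11 CD44Neg, and 0 fell in either. Of all 12949 genes, 1378 rose and 1141 fell in the first and 522 rose and 876 fell in the second. With the smallest p in the first were Ptprc, Csf1r, the macrophage colony-stimulating factor receptor, Mpo, the myeloperoxidase of granulocytes, and Pf4, a platelet and macrophage chemokine. Csf1r rose at least 984-fold, Mpo at least 1360-fold and Pf4 at least 248.7-fold. Over CD44LowKitPos, where 136 of all genes rose and 330 fell, 2 rose, Csf1r by 6.80 ± 0.74 and Ptprc by 2.91 ± 0.38 (edgeR adjusted p of 2.02e-04 and 5.38e-04). In this comparison DESeq2 called 2 of the 14 higher and 1 lower, with 879 of all genes called, and limma voom called 3 higher and 2 lower, with 693 of all genes. Several of these genes are also transcripts of macrophages, whose markers were high in the same 3 libraries. Csf1r is itself on the macrophage marker list, so its rise is part of that result and no separate observation.

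Of 14 genes listed as corepressors of RUNX proteins, all were tested for a change in level. Whether each acts as a corepressor in these cells was not tested. Aes, a short Groucho-family member, rose in the earlier CD44LowKitNeg libraries by 2.24 ± 0.43 and in CD44LowKitPos by 2.54 ± 0.43, both over CD44Neg (edgeR adjusted p of 0.00623 and 9.94e-04). Cbfa2t3, the ETO2 gene and a relative of Runx1t1, rose over CD44Neg in E11 CD44LowKitNeg by 2.36 ± 0.36 and in CD44LowKitPos by 1.32 ± 0.28 (adjusted p of 4.08e-04 and 0.00655). Its CD44Neg libraries at E11 had 13.04 to 20.4 normalised CPM and the E11 CD44LowKitNeg libraries 73.7 to 87.6. Runx1 was at 0 in all 6 of these libraries. At E9.5 and E10 Cbfa2t3 had 47.8 to 76.2 normalised CPM in CD44LowKitNeg and 14.3 to 34.6 in CD44Neg. At E11 Aes had 28.5 to 60.4 in CD44LowKitNeg and 5.56 to 15.8 in CD44Neg. Neither pair overlapped, though edgeR called neither. Marker sums also differed between these E11 groups. They were 5445 to 5982 in CD44LowKitNeg and 3759 to 4179 in CD44Neg for endothelial, 99.8 to 156 and 19.6 to 44.6 for blood, 242 to 689 and 81.6 to 109 for neural, 29.2 to 99.1 and 0.465 to 17.2 for mesenchyme and 32.2 to 61.3 and 5.56 to 23.7 for erythroid markers, none of them overlapping. The macrophage sums overlapped, and 1 to 3 of the neural markers were detected in each of these libraries. By edgeR 2 endothelial markers and 1 blood marker rose, in a comparison that called 3.64% of all genes. Their part in the E11 differences of Cbfa2t3 and of Ets1, given below, was not tested. In CD44High Cbfa2t3 and Tle1, a Groucho corepressor, changed by -1.57 ± 0.35 and -3.18 ± 0.62 against E11 CD44LowKitNeg. These were 2 of the 14 in a comparison that called 19.5% of all genes.

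Of 14 coactivators and modifiers, Ets1, an endothelial and lymphoid factor that binds DNA next to RUNX1, was the member called most often. Against CD44Neg it fell by 1.95 ± 0.42 in E11 CD44LowKitNeg, fell by 2.71 ± 0.44 in CD44LowKitPos and fell by 4.83 ± 0.49 in CD44High (edgeR adjusted p of 0.00664, 7.10e-04 and 5.80e-07). In CD44High against E11 CD44LowKitNeg Wwtr1, the TAZ gene, fell by 5.33 ± 0.69, Yap1 fell by 4.19 ± 0.96, and Cdk6, a cell-cycle kinase, rose by 2.76 ± 0.38. With Ets1 these were 4 of the 14 called, again beside 19.5% of all genes. The medians of both lists lay between -0.95 and 0.85 on the log2 scale in these comparisons.

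The genes whose levels followed each member most closely were taken by Pearson's r of log2 CPM over the 22 libraries, which share populations, depth and date. For Runx1 they were Denr (0.926), Fam96a (0.888) and Uchl5 (0.871). Denr, a translation factor gene, had 121 to 146 normalised CPM in the E11 CD44LowKitNeg libraries and 233 to 258 in the earlier ones, so its range was far narrower than that of Runx1. For Runx1t1 they were Trappc13 (0.773), Pigx (0.763) and Caprin2 (0.762), and for Cbfb Rap2c (0.831), Sec61a2 (0.785) and Ipo11 (0.767). For Runx3 they were E330020D12Rik, Mx1 and Slc2a6, each at 0.996 or above, with r over libraries of which all but the 3 CD44High ones were at 0 for Runx3.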

How the data were processed

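Raw counts per gene were deposited by the authors for 22 libraries. RNA from 25 sorted cells was amplified with SMART-Seq2 (14 cycles), sequenced on an Illumina NextSeq, clipped with FASTX, mapped with RNA STAR and counted with htseq-count. The submitters' processing notes name FastQC, HTSeq and the build mm10, while the annotation and strand setting are not given in the sources used here. The counts are whole numbers without normalisation, from 3912350 to 8657546 per library (median 5758382.5), of which Rn45s took 1.92% to 23.9%.

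Genes were kept with filterByExpr (minimum count 10), scaled by TMM and fitted once over the 9 combinations of population and stage with edgeR 4.0.16 in R 4.3.3. Its quasi-likelihood test was used with Benjamini-Hochberg adjustment over 12949 genes and a threshold of 0.01, and SEs were derived from the F statistic. DESeq2 1.42.0, limma 3.58.1 with voom, other scalings and filters, other designs, thinning to the smallest library and leaving out each library were alternatives. Means are given with SD. A group at 0 was set to 3 counts per library, which covers counting error only since reads carry no molecular identifiers, and folds against it are lower bounds. Positions and lengths came from GENCODE vM21 and promoters from RefSeq, read with Python 3.11.15. No pair of libraries of a group agreed within sampling noise (chi-square per degree of freedom from 17.0 to 85.2 over 20 pairs).

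The fit was tested on simulated data for E11 CD44LowKitNeg against CD44Neg over 12455 genes. It recovered 81 of 200 changed genes, with 1 false call: 29 of the genes changed by a log2 of 2 and 52 of the equally many changed by 3. The members and gene lists were chosen with earlier results of these data known. Named were the 5 members, up to 4 called genes of each list with the smallest p, the 3 genes most alike to each member and marker lists as sums. Genes outside this rule are marked as picked once their values were known.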

Additional observations from a re-analysis of the deposited data

Results flagged for a closer look

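Members were examined for a library far from the rest in 10 sets of 4 to 10 libraries, of which chance alone marks about 1 in 20, and 2 stood apart. Runx2 in CD44LowKitNeg was carried by replicate 15 at E10 alone, with 9 counts against 0 in the other 5 libraries, so that its gap to the nearest library was 1 of the whole range. The same library had the highest Runx1, Runx1t1 and Cbfb levels of its population, at 129, 36.2 and 192.8 normalised CPM. Runx1t1 in CD44Neg at E9.5 was highest in replicate 6, at 10.4 normalised CPM (56 counts) against at most 1.72 in the other 3, a gap of 0.854 of the range. That library also had the highest Cbfb level of its population, at 143. It stood apart as a library too, with 1.92% of counts on Rn45s against 9.94% to 13.8% in the other 3, the fewest genes detected of all 22 libraries (10825), and chi-square per degree of freedom of 61.1 to 85.2 in its pairs against 17.1 to 20.4 among the others. Without it, Runx1t1 in CD44LowKitPos over CD44Neg was 4.69 with an edgeR adjusted p of 0.0923. Runx1 and Cbfb themselves had no library that stood apart in this way.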

How the results depend on the processing

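Of 986 values of the members under alternatives, 929 kept their direction and their side of the threshold and 37 changed sign, of which 1 was called. The higher Runx1 of earlier CD44LowKitNeg over CD44Neg (3.80) was called in 10 of 22 fits without 1 library (3.38 to 5.76) and in 8 of 10 other alternatives. It was not called with only the populations compared (3.81) or, chosen after seeing the data, without both single E9.5 libraries (5.60). The Runx1 difference between E11 and E9.5 CD44Neg was called without the filter (fitted at -9.22) and by DESeq2's Wald test (-8.40), and was fitted between -9.59 and -8.87 without 1 library. As E11 had 0 counts, these fitted values depend on the prior count and are no sizes, and the bound remains at least 20.99-fold. With population plus stage as terms, CD44High over CD44LowKitPos reversed for Runx1 (10.5) and Cbfb (0.22), since these populations share no stage.

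The other changes of sign were in differences that were called in no setting. Cbfb in CD44High over E11 CD44LowKitNeg (0.05) was -0.073 with DESeq2 size factors and with its Wald test, -0.0031 without Rn45s, -0.22 with population plus stage, -0.087 with only the populations compared, -0.038 without both E9.5 libraries, -0.61 without CD44High replicates 20 and 21 and -0.44 to 0.34 without 1 library. With population plus stage Cbfb was 0.22 in E11 CD44LowKitNeg over CD44Neg and 0.0033 in CD44High over CD44Neg, and Runx1t1 was -0.52 in CD44High over E11 CD44LowKitNeg. Runx1t1 in E11 CD44LowKitNeg over CD44Neg was -2.003 by limma voom, and in CD44LowKitPos over CD44LowKitNeg -0.22 without both E9.5 libraries. Without 1 library, Cbfb ranged from -0.58 to 0.047 in E11 CD44LowKitNeg over CD44Neg and from -0.28 to 0.055 in CD44LowKitPos over CD44Neg. Runx1t1 ranged from -7.49 to 1.69 in E11 CD44LowKitNeg over CD44Neg, -0.76 to 8.41 in CD44High over CD44LowKitNeg, -0.14 to 2.02 in CD44High over CD44Neg, -0.90 to 1.78 in CD44Neg at E11 over E9.5, -8.63 to 0.032 in CD44LowKitNeg at E11 over earlier and -0.18 to 2.00 in CD44LowKitPos over CD44LowKitNeg. Without CD44High replicates 20 and 21, Runx1t1 was -8.15 in CD44High over CD44LowKitNeg and -7.56 over CD44Neg, where the library left had no count (14384 genes passed the filter in this fit). The cause was not tested.

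Counts of all genes called moved more, over the alternatives and then without 1 library. They were 28 to 1175 and 30 to 350 (182 as reported) for earlier CD44LowKitNeg over CD44Neg, 406 to 1175 and 195 to 493 (471) at E11, 1 to 112 and 1 to 29 (15) for stage dependence, 59 to 611 and 68 to 268 (203) within CD44LowKitNeg, 65 to 620 and 82 to 293 (121) for CD44LowKitPos over CD44LowKitNeg, 377 to 844 and 277 to 473 (410) over CD44Neg, 183 to 879 and 366 to 470 (466) for CD44High over CD44LowKitPos, 1270 to 3231 and 1869 to 2546 (2519) over CD44LowKitNeg, 812 to 1993 and 982 to 1411 (1398) over CD44Neg, and 5 to 192 and 0 to 25 (6) within CD44Neg. DESeq2 size factors moved the median of all genes by 0.104 on the log2 scale within CD44LowKitNeg. No paired analysis was possible because the groups share no replicate number. With single libraries at E9.5 in 2 populations, a lone library was assumed to vary like the others.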
